A study of Arabidopsis thaliana with 11 samples.

Results

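The genes described here were the 9 clade A protein phosphatase 2C (PP2C) genes of Arabidopsis thaliana and NCED3, a gene of abscisic acid synthesis. These 10 genes were taken by name, and all were found among the 20971 genes of the RNA-seq table. The table covers 11 inflorescence libraries of ecotype Landsberg plants. All plants, day 0 included, lacked working AP1 and CAL genes (alleles ap1-1 and cal-1), so that their shoots form inflorescence-like meristems instead of flowers. They also carried AP1-GR, a fusion of AP1 with the steroid-binding glucocorticoid receptor, driven by the promoter of AP1 itself. Dexamethasone, given daily to the shoot tips, lets the fusion protein enter the nucleus, after which flowers form in near synchrony. The 4 groups were day 0, taken before any treatment, with 3 libraries, day 2 with 2 libraries, day 4 with 3 libraries and day 8 with 3 libraries. The samples used here hold no untreated plants after day 0, so that days of dexamethasone, plant age and floral stage cannot be told apart. AP1-GR acts only where the AP1 promoter is active, and each library is a pool of whole inflorescences. In such bulk tissue, a change in the share of a cell type and a change in RNA per cell cannot be told apart either.

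Abscisic acid is the hormone of drought responses, stomatal closure and seed dormancy. Its PYR/PYL/RCAR receptors, once they bind the hormone, dock onto clade A PP2Cs and block them. Free PP2Cs keep the SnRK2 kinases dephosphorylated and inactive, and blocked PP2Cs release these kinases to phosphorylate bZIP transcription factors of the ABF/AREB/ABI5 group. PP2Cs are therefore brakes on the pathway, and most of their genes are themselves induced by abscisic acid, from which the HAI genes (highly ABA-induced) take their name. NCED3 encodes a 9-cis-epoxycarotenoid dioxygenase, which cleaves carotenoids in the rate-limiting step of synthesis.

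Values are FPKM, fragments scaled by transcript length and by the mapped fragments of the library. The deposited columns share a single distribution of values, with totals of 734615 to 734624 FPKM, so the depth of each library is unknown. Floral and inflorescence markers, 8 genes, summed to 302 to 345 FPKM on day 0, 479 to 527 FPKM on day 2, 829 to 852 FPKM on day 4 and 627 to 842 FPKM on day 8. The organ identity genes AP3 and AG were at or under 0.184 FPKM on day 0. Means of LFY, AP1, AP3, PI, AG and SEP3 were higher on day 8 than on day 0. STM went the other way, with a mean of 41.3 FPKM on day 8 against 134 FPKM, and TFL1 had 33.5 FPKM against 37.0 FPKM. The AP1 value may include RNA of the AP1-GR fusion. Day 8 libraries differed more among themselves than those of other days, with a pooled SD over all tested genes of 0.16, 0.23, 0.17 and 0.34 on the log2 scale on days 0, 2, 4 and 8.

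Day 8 was the point at which the genes moved. ABI1, ABI2, HAB1, HAI1, HAI2 and NCED3 rose on day 8 relative to day 0, by 1.18 to 2.44 on the log2(FPKM + 1) scale. PP2CA rose past the 2-fold minimum relative to day 4 alone, HAB2 stayed under that minimum, HAI3 was under 1 FPKM throughout, and AHG1, which was near 1 FPKM at most, had its lowest values on day 8. A gene was tested where it had at least 1 FPKM in at least 2 libraries, which 8 of the 10 did within day 0 alone. It was called where limma's adjusted p (Benjamini-Hochberg, over 19278 genes) was under 0.05 and the change was at least 2-fold in FPKM + 1.

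Among the 4 days, 7 of the 8 tested genes changed by the F test, against 32.8% of all tested genes. In the pairs, 6 were called higher on day 8 than on day 0 (14.2% of all genes), 6 higher than on day 2 (13.8%) and 7 higher than on day 4 (12.5%). None was called lower. Every day 8 library lay above every library of days 0, 2 and 4 for 7 of the 8, all but HAI1, and for 23.9% of all tested genes. The median change from day 0 to day 8 was 1.52 over the 8 genes and -0.19 over all tested genes, on the log2 scale. The genes were chosen with earlier results of these data known, so these contrasts with all genes are a description and not a test.

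**Figure D1:**
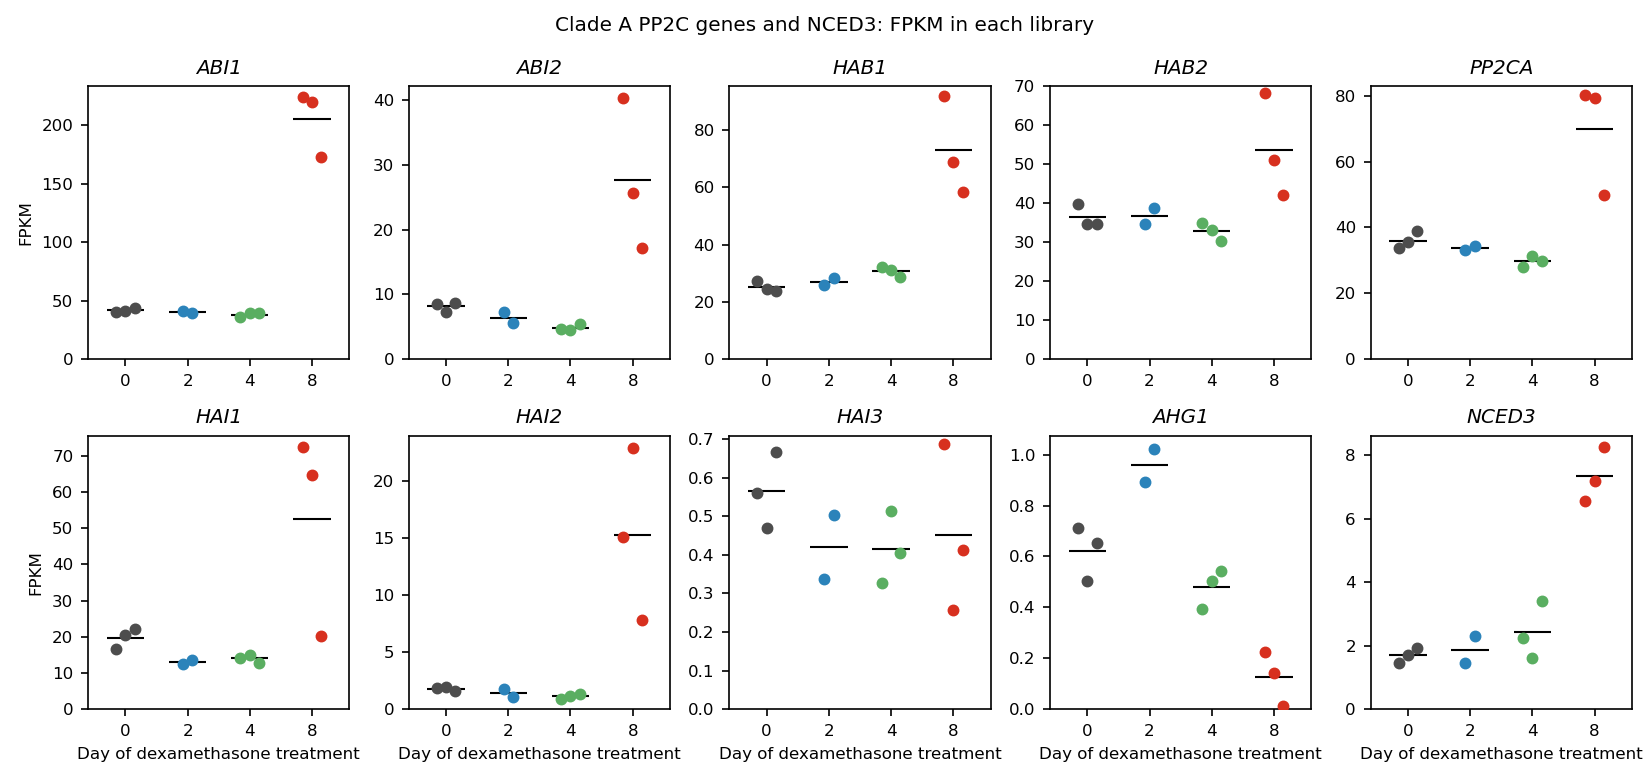
FPKM (vertical axes, linear, each starting at 0) of the 10 genes in each library, with points for libraries and lines for day means, by day of dexamethasone treatment. ABI1 sits at 36.1 to 43.4 FPKM through day 4 and at 173 to 224 FPKM on day 8, while AHG1 has its lowest values, 0.0109 to 0.223 FPKM, on day 8.

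ABI1 (AT4G26080, chr4:13219915-13222376, minus strand, 4 exons; all coordinates are those of RefSeq's annotation of TAIR10.1) encodes a PP2C known from a dominant abscisic acid insensitive mutant. It had 40.5, 41.3 and 43.4 FPKM on day 0, 41.2 and 39.8 FPKM on day 2, 36.1, 39.4 and 39.1 FPKM on day 4, and 224, 219 and 173 FPKM on day 8. The 8 libraries of days 0 to 4 formed a narrow band, and all 3 day 8 libraries stood far above it. Day 8 exceeded day 0 by 2.26 ± 0.0957 on the log2 scale (SE; limma, adjusted p = 1.70e-08), a 4.92-fold ratio of mean FPKM. ABI1 was the highest of the 10 genes on each day, and 5.68% of tested genes had a larger rise on day 8 relative to day 0. Its 3' end overlaps AT4G26070, on the opposite strand, by 22 bp, and the strand setting of the counting is not given in the sources used here.

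ABI2 (AT5G57050, chr5:23087122-23089631, plus strand, 4 exons) is the close homolog of ABI1. It had 8.59, 7.36 and 8.69 FPKM on day 0, 7.29 and 5.56 FPKM on day 2, 4.64, 4.51 and 5.36 FPKM on day 4, and 40.4, 25.6 and 17.1 FPKM on day 8. Its day 8 libraries spread more widely than those of ABI1 but did not overlap any earlier library. The change was 1.56 ± 0.237 against day 0 (SE; limma, adjusted p = 1.23e-04) and 2.22 ± 0.237 against day 4 (adjusted p = 1.17e-05).

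HAB1 (AT1G72770, chr1:27389948-27393327, plus strand, 5 exons) and HAB2 (AT1G17550, chr1:6034270-6037398, plus strand, 4 exons) form another pair of homologs, named for their hypersensitive mutants. HAB1 had 27.3, 24.6 and 23.8 FPKM on day 0, 26.1 and 28.2 FPKM on day 2, 32.3, 31.1 and 28.8 FPKM on day 4, and 92.0, 69.0 and 58.4 FPKM on day 8. HAB2 had 39.7, 34.8 and 34.7 FPKM on day 0, 34.7 and 38.7 FPKM on day 2, 35.0, 33.1 and 30.3 FPKM on day 4, and 68.2, 51.1 and 42.0 FPKM on day 8. HAB1 was clear of all earlier libraries on day 8, while the lowest day 8 library of HAB2 was just above its highest day 0 library. HAB1 rose by 1.48 ± 0.137 against day 0 (SE; limma, adjusted p = 3.02e-06). HAB2 differed by 0.53 ± 0.146 (SE; limma, adjusted p = 0.00690), which is 1.48-fold in mean FPKM and was not called. HAB2 was above HAB1 in mean level on days 0, 2 and 4 and below it on day 8, and the libraries of the pair overlapped on days 4 and 8.

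PP2CA (AT3G11410, chr3:3583782-3585850, minus strand, 4 exons), also known as AHG3, is a phosphatase of germination and stomatal responses. It had 33.7, 35.5 and 38.8 FPKM on day 0, 33.0 and 34.3 FPKM on day 2, 28.0, 31.3 and 29.9 FPKM on day 4, and 80.3, 79.3 and 49.98 FPKM on day 8. Day 8 replicates 1 and 2 agreed closely, and replicate 3 was lower but still above each earlier library. The change was 1.18 ± 0.153 against day 4 (SE; limma, adjusted p = 4.79e-05) and was called. Against day 0 it was 0.91 ± 0.153 (adjusted p = 2.64e-04) and against day 2 it was 1.00 (adjusted p = 3.50e-04), both just short of 2-fold. Without day 8 replicate 3 these were 1.13 and 1.22, and both were called.

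HAI2 (AT1G07430, chr1:2280746-2282828, minus strand, 3 exons) had the largest rise of the 8 tested genes. It had 1.81, 1.90 and 1.60 FPKM on day 0, 1.80 and 1.06 FPKM on day 2, 0.925, 1.11 and 1.33 FPKM on day 4, and 15.1, 22.8 and 7.79 FPKM on day 8. It was thus a low transcript up to day 4 and a moderate one on day 8, with no overlap. The change was 2.44 ± 0.29 against day 0 (SE; limma, adjusted p = 1.90e-05), an 8.61-fold ratio of mean FPKM, and 2.83 ± 0.29 against day 4 (adjusted p = 8.73e-06).

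HAI1 (AT5G59220, chr5:23894404-23896939, minus strand, 4 exons) was the least even of the called genes. It had 16.7, 20.5 and 22.1 FPKM on day 0, 12.5 and 13.6 FPKM on day 2, 14.2, 15.1 and 12.7 FPKM on day 4, and 72.5, 64.7 and 20.2 FPKM on day 8. Day 8 replicate 3 lay within the day 0 libraries, and replicates 1 and 2 lay far above them. The change against day 0 was 1.18 ± 0.364 (SE; limma, adjusted p = 0.0123). The call was lost without day 8 replicate 1 (0.86, adjusted p = 0.0524) and without day 8 replicate 2 (0.94, adjusted p = 0.0536).

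HAI3 (AT2G29380, chr2:12608675-12610350, plus strand, 3 exons) and AHG1 (AT5G51760, chr5:21026805-21029188, plus strand, 4 exons), a phosphatase of seeds, were too low for the test. HAI3 ranged over 0.470 to 0.666 FPKM on day 0, 0.336 to 0.503 FPKM on day 2, 0.328 to 0.514 FPKM on day 4 and 0.256 to 0.687 FPKM on day 8, so that all days overlapped. AHG1 had 0.712, 0.503 and 0.655 FPKM on day 0, 0.894 and 1.02 FPKM on day 2, 0.392, 0.503 and 0.542 FPKM on day 4, and 0.223, 0.144 and 0.0109 FPKM on day 8. Its 3 day 8 libraries were below all 8 others, the opposite order to the genes that rose. With no filter on low values, the limma fit over 20971 genes gave AHG1 a change of -0.53 ± 0.12 against day 0 (SE; adjusted p = 0.00214), under the 2-fold minimum, and HAI3 an F test adjusted p of 0.723. A pseudocount of 1 compresses changes at this level, and the depth behind these values is unknown.

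NCED3 (AT3G14440, chr3:4831286-4834015, minus strand, a single exon) had 1.46, 1.70 and 1.91 FPKM on day 0, 1.44 and 2.31 FPKM on day 2, 2.24, 1.63 and 3.42 FPKM on day 4, and 6.56, 7.19 and 8.28 FPKM on day 8. The 3 day 8 libraries were close to each other and above all earlier ones. The change was 1.63 ± 0.196 against day 0 (SE; limma, adjusted p = 2.02e-05), a 4.34-fold ratio of mean FPKM, and 1.31 ± 0.196 against day 4 (adjusted p = 1.32e-04). Even on day 8 its level stayed below that of 7 of the 9 PP2C genes in mean FPKM, although its libraries overlapped those of HAI2.

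**Figure D2:**
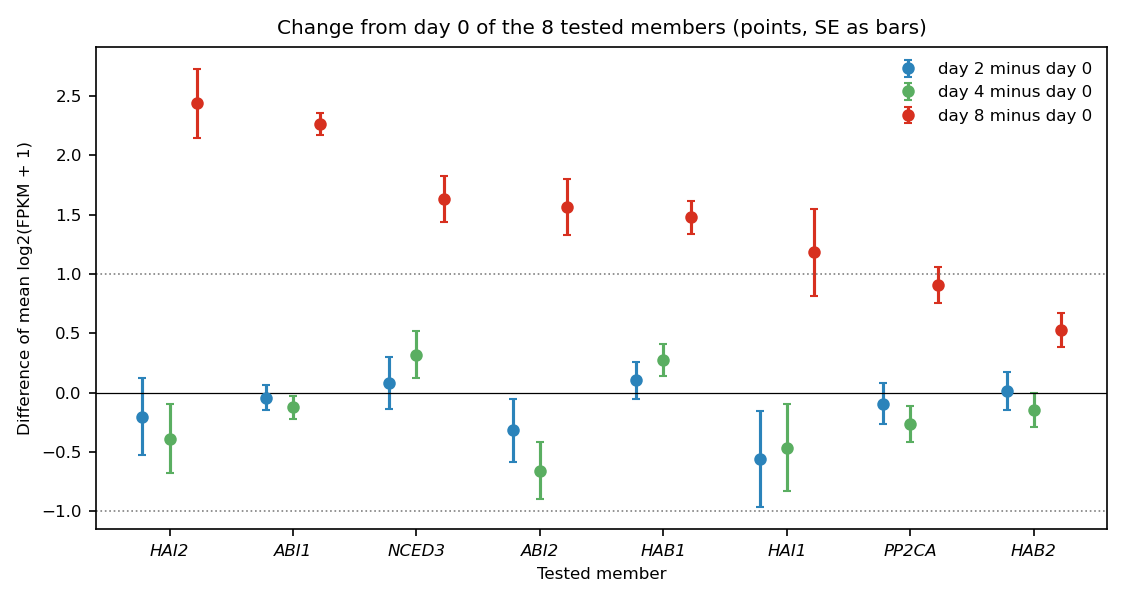
Difference in mean log2(FPKM + 1) from day 0 (vertical axis) for each tested gene on days 2, 4 and 8, with SE bars from limma and dotted lines at 2-fold. Day 8 points run from 0.53 for HAB2 to 2.44 for HAI2, and no day 2 or day 4 point reaches 2-fold.

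The order of levels changed with the phosphatases that rose. On day 0, ABI1 was followed by HAB2 and PP2CA, which overlapped, then by HAB1, HAI1 and ABI2, each clear of the next, then by HAI2 and NCED3, which overlapped, and last by AHG1 and HAI3, which overlapped. On day 8 ABI1 remained first and clear of the rest, while HAB1, PP2CA, HAB2, HAI1, ABI2, HAI2 and NCED3 followed in that order of means, each overlapping its neighbour. The summed level of the 9 PP2C genes was 170 ± 3.80 FPKM on day 0, 160 ± 3.46 FPKM on day 2, 152 ± 4.16 FPKM on day 4 and 498 ± 116 FPKM on day 8 (SD, n = 3, 2, 3 and 3). ABI1 made up 37.7 to 46.9% of this sum on day 8 and 23.9 to 24.9% of it on day 0. FPKM are per length, so these levels can be set side by side, but reads shared between homologs could affect them. The coding sequences of the 9 PP2C genes, compared in 36 pairs, were at most 79.3% identical (ABI1 and ABI2), and the longest exact run shared by any pair was 33 bp.

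Before day 8, movements were small and mixed. None of the 8 tested genes was called by limma in day 2 against day 0, day 4 against day 0 or day 4 against day 2, where 0, 1 and 0 of them had an unadjusted p under 0.05. Calls were rare over all tested genes too, at 0.337%, 2.21% and 0.368%, so that these counts say nothing particular of the 8. Every day 4 library was below every day 0 library for ABI1, ABI2, HAI1, HAI2 and PP2CA, 5 of 8, and for 22.9% of all tested genes. The opposite held for HAB1, 1 of 8, and for 21.8% of all tested genes. This look at overlap was chosen after the values had been seen. With day 8 left out of the fit, whose spread then came from the tighter early days, ABI2 differed by -0.66 ± 0.113 between day 4 and day 0 (SE; limma, adjusted p = 0.00356, 18531 genes). In that fit HAI1 differed by -0.46 (adjusted p = 0.0131), PP2CA by -0.27 (adjusted p = 0.0228) and HAB1 by 0.28 (adjusted p = 0.0249), none of them 2-fold. These 4 of 8 compare with 23.7% of all genes with an adjusted p under 0.05 there. In day 2 against day 0 of the same fit, HAI1 alone passed, with -0.56 ± 0.118 (SE; limma, adjusted p = 0.0313), 1 of 8 against 4.997% of all genes.

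Day 8 replicate 3 was the lowest of its day for 7 of the 8 tested genes, all but NCED3, in which it was the highest. Among the 2733 genes called higher on day 8 than on day 0, it was the lowest library in 58.9%, and over all tested genes in 26.1%. Relative to the day 0 mean, this library had 1.02 times the FPKM for HAI1, 1.39 times for PP2CA and 4.89 times for NCED3. Day 8 replicate 1 had 3.67, 2.23 and 3.88 times for the same genes. No call of the 10 genes was lost without day 8 replicate 3. The cause of its lower levels was not tested.

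**Figure D3:**
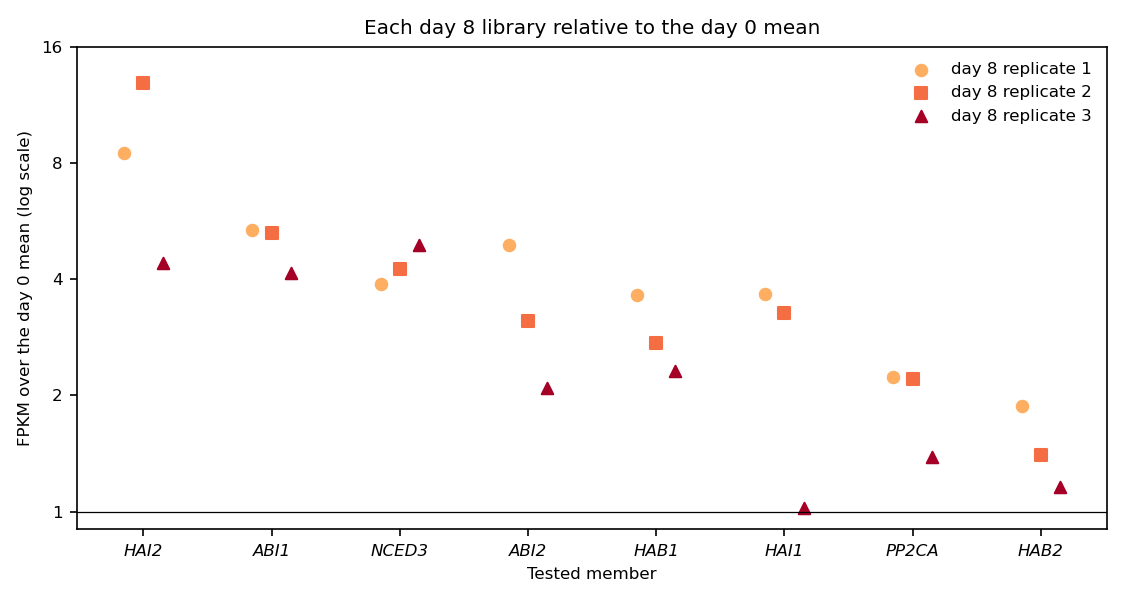
FPKM of the 3 day 8 libraries divided by the day 0 mean (vertical axis, log scale) for the 8 tested genes, with one marker shape per library. Day 8 replicate 3 is the lowest point for each gene but NCED3, and for HAI1 it lies at 1.02, next to the line at 1.

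Promoters are shown for ABI1 and HAI2, the PP2C genes with the largest rises, for PP2CA, which had the most copies of the abscisic acid response core ACGTG with each strand counted, and for AHG1, which went the other way. Windows run from 250 bases before to 50 bases after the gene start in the TAIR10.1 reference, which is of ecotype Columbia and not of the Landsberg plants used. Letters in capitals are ACGTG on the strand shown or, as CACGT, on the other strand. A palindromic CACGTG counts once on each strand, and adjacent copies run together.
ABI1, chr4:13222327-13222626, minus strand: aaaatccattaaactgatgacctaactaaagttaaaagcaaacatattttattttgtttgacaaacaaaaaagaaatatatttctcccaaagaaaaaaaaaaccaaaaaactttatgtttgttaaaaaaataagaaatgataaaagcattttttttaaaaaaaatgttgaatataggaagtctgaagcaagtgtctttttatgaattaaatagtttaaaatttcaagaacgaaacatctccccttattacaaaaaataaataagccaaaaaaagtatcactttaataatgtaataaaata
HAI2, chr1:2282779-2283078, minus strand: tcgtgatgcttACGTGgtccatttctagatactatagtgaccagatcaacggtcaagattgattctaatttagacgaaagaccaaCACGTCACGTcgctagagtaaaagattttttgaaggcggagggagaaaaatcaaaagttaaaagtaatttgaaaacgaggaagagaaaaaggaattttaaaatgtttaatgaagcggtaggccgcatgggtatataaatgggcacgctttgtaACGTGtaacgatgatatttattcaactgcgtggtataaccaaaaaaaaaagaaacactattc
PP2CA, chr3:3585801-3586100, minus strand: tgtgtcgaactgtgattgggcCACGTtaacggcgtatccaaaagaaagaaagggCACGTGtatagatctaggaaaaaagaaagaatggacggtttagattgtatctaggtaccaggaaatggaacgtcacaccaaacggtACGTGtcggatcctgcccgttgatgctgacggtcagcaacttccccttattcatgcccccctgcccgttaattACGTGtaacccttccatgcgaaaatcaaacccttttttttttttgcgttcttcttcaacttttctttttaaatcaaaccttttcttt
AHG1, chr5:21026555-21026854, plus strand: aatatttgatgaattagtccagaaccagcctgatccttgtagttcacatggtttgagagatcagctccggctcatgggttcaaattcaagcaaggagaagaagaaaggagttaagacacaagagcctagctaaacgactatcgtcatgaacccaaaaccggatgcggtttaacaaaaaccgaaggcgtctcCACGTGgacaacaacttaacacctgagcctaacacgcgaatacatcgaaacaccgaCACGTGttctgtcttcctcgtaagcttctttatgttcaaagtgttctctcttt

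ACGTG, searched on both strands, was present in 6 of the 10 promoter windows and in 26.7% of the windows of 27443 protein-coding genes. PP2CA had 5 copies, HAI2 and AHG1 had 4 each, HAB2 and HAI3 had 2 each and HAB1 had 1. The windows of ABI1, ABI2, HAI1 and NCED3 had none, which says only that these letters are not in this window. At least 2 copies were present in 5 of the 10 windows and in 10.7% of all windows. The palindrome CACGTG was present at 1 place in PP2CA and 2 places in AHG1, and in 7.68% of all windows. Each of these places adds a copy of ACGTG on either strand, so all copies in AHG1 lie in its 2 palindromes. The copies did not sort the genes by their day 8 change. ABI1, with none, and HAI2, with 4, had the largest rises, while AHG1, with 4, had its lowest values on day 8.

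Other genes of the pathway were taken from lists by role, 61 genes together, which were also chosen with earlier results of these data known. The table held 52 of them, and 47 passed the filter on low values. By the F test 27 changed among the days, against 32.8% of all tested genes. On day 8 relative to day 0, 22 were called higher and 2 lower, with a median change of 0.98. Over all 19278 tested genes 14.2% were called higher and 2926 genes lower there, with a median of -0.19. Against day 4, 18 were called higher and 3 lower, and over all tested genes 2401 and 2111. In day 4 against day 0, 3 of the 47 were called, ABI5, CYP707A1 and TMAC2, all higher, against 2.21% of all tested genes in either direction.

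The receptors, partners of the PP2Cs, went both ways. Of 10 tested receptor genes, PYL7, PYL5, PYR1 and PYL9 were called higher on day 8 relative to day 0, against 14.2% of all genes. PYL1 was called lower, against 2926 of all 19278 tested genes. By limma, PYL8 was at 0.98 (adjusted p = 9.15e-06) and PYL4 at -0.69 (adjusted p = 0.0100), both under the 2-fold minimum. PYL8 was called higher in day 8 against day 2. PYL6 at 0.83 (adjusted p = 0.0784), PYL11 at -0.31 (adjusted p = 0.0917) and PYL2 at -0.34 (adjusted p = 0.208) were not called. PYL7 had 182, 147 and 109 FPKM on day 8, against 13.9, 13.1 and 16.4 FPKM on day 0, a change of 3.23 ± 0.153 (SE; limma, adjusted p = 3.12e-08). PYL5 rose by 2.34 and PYR1 by 2.07. PYL1, named after its values were seen, had 11.8, 12.3 and 11.1 FPKM on day 8, against 60.1, 50.8 and 51.8 FPKM on day 0, a change of -2.12 ± 0.097 (SE; limma, adjusted p = 2.72e-08). The summed level of the 11 receptor genes in the table was 407 to 493 FPKM on day 8, against 236 to 259 FPKM on day 0, and that of the 9 PP2C genes was 369 to 593 FPKM, against 167 to 174 FPKM.

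Downstream of the phosphatases, the kinases and most transcription factors were not called. In day 8 against day 0, 5659 of all 19278 tested genes were called in either direction, so counts in such short lists say little. None of the 3 SnRK2 kinase genes (SNRK2.2, SNRK2.3 and OST1) passed the 2-fold minimum. On day 8 relative to day 0, OST1 differed by 0.70 ± 0.15 (SE; limma, adjusted p = 0.00143). SNRK2.3 differed by 0.42 (limma, adjusted p = 0.0282) and SNRK2.2 by 0.30 (adjusted p = 0.0411). Of 7 tested bZIP factor genes ABI5 alone was called, with 50.7, 70.6 and 39.5 FPKM on day 8, against 3.11, 3.16 and 3.04 FPKM on day 0. Its change was 3.69 ± 0.171 (SE; limma, adjusted p = 2.96e-08), and it was already at 7.11, 8.60 and 8.06 FPKM on day 4. The other 6 stayed under 2-fold and went both ways. By limma, EEL was at -0.92 (adjusted p = 2.84e-06), ABF3 at -0.81 (adjusted p = 4.46e-04) and ABF2 at -0.39 (adjusted p = 0.00490). AREB3 was at 0.32 (adjusted p = 0.00503), ABF4 at 0.29 (adjusted p = 0.0124) and ABF1 at 0.016 (adjusted p = 0.898). An unadjusted limma p under 0.05 was found for 6 of the 7 and for 14638 of all 19278 tested genes.

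Response genes, which are commonly used as readouts of abscisic acid or dehydration, had 11 of 12 tested called higher on day 8 relative to day 0, against 14.2% of all genes. Their median change was 2.85. RD26, a NAC transcription factor, had 486, 643 and 272 FPKM on day 8, against 3.71, 3.20 and 4.43 FPKM on day 0, a change of 6.53 ± 0.247 (SE; limma, adjusted p = 8.61e-09). LEA7, a late embryogenesis abundant protein gene, had 84.9, 70.7 and 16.0 FPKM on day 8 and at most 0.132 FPKM on day 0. RD20, a caleosin of lipid droplets, rose by 3.85 ± 0.371. The genes RD29B and RAB18 are not among the 20971 genes of the RNA-seq table. EM1 and EM6, under 1 FPKM in each library, were too low for the test.

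Around NCED3, none of 6 other synthesis genes tested was called in day 8 against day 0, where 5 had an unadjusted limma p under 0.05. Over all 19278 tested genes, 5659 were called there and 14638 had an unadjusted limma p under 0.05. AAO3, an aldehyde oxidase of the last step, came closest with 0.99 ± 0.116 (SE; limma, adjusted p = 1.68e-05), and it was called by the F test and in day 8 against day 2, with 1.07 (adjusted p = 2.77e-05). In day 8 against day 0, limma gave ABA3 0.40 (adjusted p = 8.52e-04) and ABA1 0.12 (adjusted p = 0.456). Lower on day 8 were NCED5 by -0.74 (adjusted p = 0.00223), ABA4 by -0.70 (adjusted p = 6.56e-04) and ABA2 by -0.49 (adjusted p = 1.90e-04). The median change over the 6 genes was -0.18. NCED2 and NCED9, further dioxygenase genes too low for the test, had at most 1.03 and 1.08 FPKM in any library, each on day 8. Among the 8'-hydroxylases, which break abscisic acid down, CYP707A3 and CYP707A1 rose by 2.50 ± 0.536 and 2.24 ± 0.235 and CYP707A2 fell by 1.93. CYP707A3 had 13.8 and 12.3 FPKM in day 8 replicates 1 and 2 but 1.53 FPKM in replicate 3. Both glucosidase genes that release the hormone from its glucose ester were called higher on day 8 relative to day 0, BGLU18 by 3.08 ± 0.405 and BGLU33 by 1.27 ± 0.221. Of 3 tested transporters, ABCG40 and NPF4.6 rose, by 2.75 ± 0.381 and 1.11 ± 0.127.

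**Figure D4:**
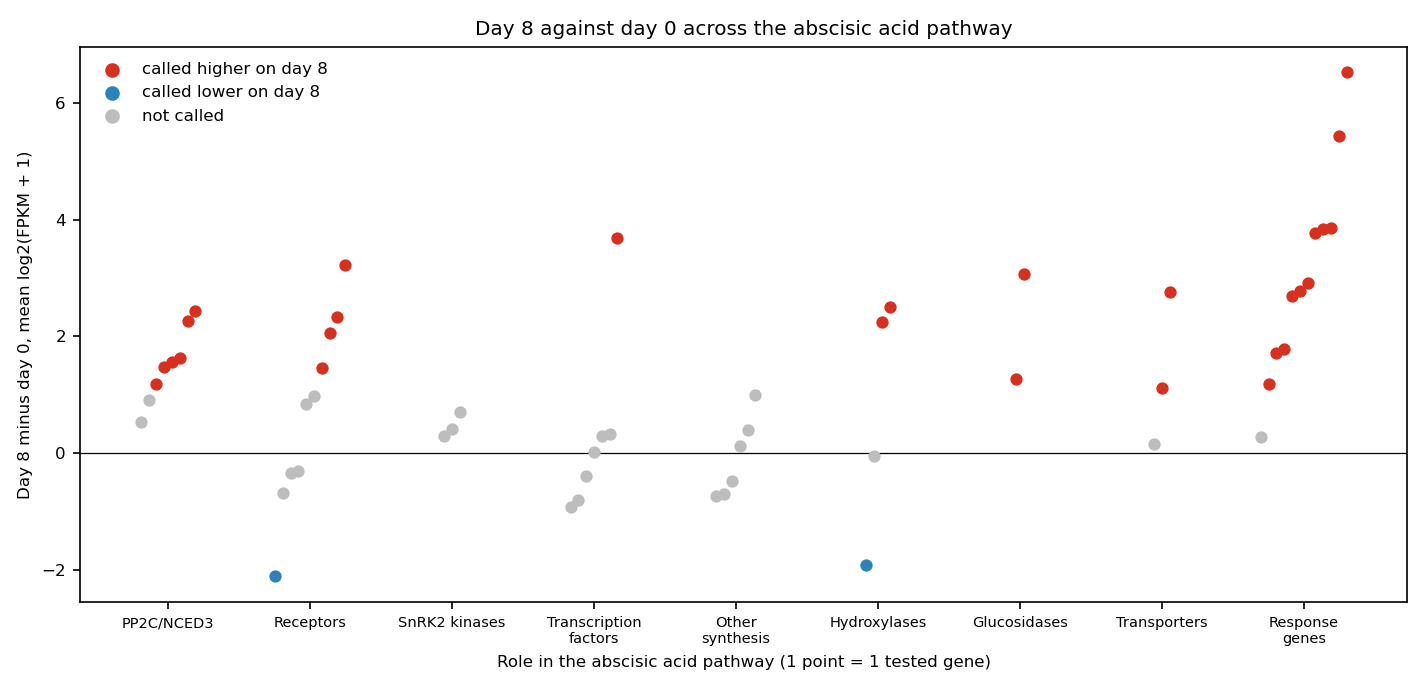
Day 8 minus day 0 in mean log2(FPKM + 1) (vertical axis) for each tested gene of the pathway, grouped by role, with colours for the call. Points of the response genes reach 6.53 (RD26), all 3 SnRK2 kinase genes are grey, and the lowest point is the receptor PYL1 at -2.12.

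Markers of cell types in which abscisic acid genes are known to act moved as well. Of 7 tested genes of the guard cell lineage, 5 were called lower on day 8 relative to day 0, against 2926 of all 19278 tested genes. SPCH, at -0.28 (limma, adjusted p = 0.324), and MYB60, at -0.95 (adjusted p = 0.00147), were not called. The summed level over 9 genes was 19.8 to 32.9 FPKM on day 8, against 48.3 to 67.4 FPKM on day 0. The guard cell channel genes KAT1 and SLAC1 were under 1 FPKM in each library. Of 5 phloem genes, SEOR1, SWEET11 and SWEET12 rose, from day 0 means of 12.1, 2.19 and 0.619 FPKM to day 8 means of 26.1, 21.0 and 20.9 FPKM. The list of 5 summed to 76.7 to 93.2 FPKM on day 8, against 34.6 to 36.7 FPKM on day 0. SUC2, a companion cell marker, had 10.2, 10.9 and 8.79 FPKM on day 8, against 8.75, 10.7 and 10.4 FPKM on day 0. APL had 6.89, 8.26 and 9.95 FPKM on day 8, against 10.8, 10.7 and 11.2 FPKM on day 0, and was not called. Of 6 green tissue genes 4 were called lower on day 8 relative to day 0, against the same 2926 of 19278 over all tested genes. The table held 2 of 6 tapetum genes, at a sum of at most 1.40 FPKM in each library. The part of these shifts in the PP2C and NCED3 values was not tested.

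The genes whose profile was most like that of the 3 most variable members were ranked by Pearson's r of log2(FPKM + 1) over the 11 libraries, as a description. The libraries share their day groups, and the day 8 libraries stand apart for each of these genes. For HAI2 they were the transcription factor genes MYB108 (r = 0.995) and ERF4 (r = 0.994) and the inositol polyphosphate phosphatase gene AT4G18010 (r = 0.993). For ABI1 they were AT3G03700 and AT3G03990 (r = 0.998 each) and the receptor gene PYL7 (r = 0.998). For ABI2 they were AT1G07590 (r = 0.988), the cytochrome P450 gene CYP81F1 (r = 0.987) and the terpene synthase gene TPS04 (r = 0.980). Such profiles were common, since 857, 1471 and 112 other genes had an r above 0.95 with HAI2, ABI1 and ABI2.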

How the data were processed

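Total RNA from pools of inflorescences was made into stranded libraries. Per the submitters' processing notes, the authors used STAR and RSEM 1.2.22 with TAIR10, and deposited 1 table of FPKM values with day means, p-values and an FDR, of which only the FPKM values of single libraries were used here. These deposited FPKM columns had a common distribution, a step not described in the sources used here. The depth of the libraries is unknown, so counting intervals could not be computed. The sources give different dexamethasone concentrations.

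Values were analysed as log2(FPKM + 1), keeping genes that reached 1 FPKM in 2 or more libraries (19278 of 20971), with limma 3.58.1 in R 4.3.3. Day was the group, over all 11 libraries, with a variance trend and Benjamini-Hochberg adjustment per comparison. A call needed an adjusted p under 0.05 and 2-fold in FPKM + 1. The p-values measure the spread between pools. The fit was tested on simulated data in which all libraries of a gene had the same spread. That test therefore does not cover the wider spread of the day 8 libraries. The study's own test, an analysis of variance on FPKM, was an alternative, as were another pseudocount (0.1), no filter, a minimum of 5 FPKM, median-ratio rescaling, fits to the days compared only, day 8 left out, no moderation, a replicate block, no fold minimum and leaving out each library.

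The members and lists were chosen with earlier results of these data known. Named were the members, the 3 genes of each pathway list with the largest range of day means among those called by the F test, and the 3 genes most like each of HAI2, ABI1 and ABI2. Further genes were named after their values were seen. Promoters, loci and coding sequences were read from TAIR10.1 and its RefSeq annotation with Python 3.11.15. The table holds no coordinates.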

Additional observations from a re-analysis of the deposited data

How the results depend on the processing

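With day 8 left out, 0 members and 5 pathway genes changed among the days by the F test, against 7 and 27 with all days. Fewer days enter this fit by its construction. In it 2 members, ABI2 and HAI1, had an F test adjusted p under 0.05 but stayed under the 2-fold minimum. Of all 18531 genes in that fit, 21.2% had an F test adjusted p under 0.05. Leaving out each library in turn gave 7 members in the F test throughout, 5 to 7 called in day 8 against day 0, 6 to 7 in day 8 against day 2, 7 in day 8 against day 4 and 26 to 28 pathway genes in the F test. The losses were HAI1 and the gains PP2CA, as given with these genes. Under an analysis of variance on FPKM, HAI1 missed the threshold (adjusted p = 0.0702). With no fold minimum, HAB2 was called in the F test and in all 3 day 8 comparisons. No direction turned under any alternative run. Median-ratio rescaling moved the median of all genes in day 8 against day 0 to -0.0049, against -0.19 as deposited, the members' median to 1.72, against 1.52, and PP2CA to 1.11, past 2-fold. Replicate numbers showed no pairing of the samples across days. Deviations from the day means correlated between -0.251 and 0.132 in 15 same-numbered pairs, with 2 above 0.1. In 30 pairs of unlike number they correlated between -0.204 and 0.251, with 5 above 0.1. The 2 libraries of day 2 deviate from their mean in mirror image, so their correlations are not independent. With the replicate block 6 members were called in day 8 against day 0, 7 in day 8 against day 2, PP2CA included, and 7 in the F test, and the count of all genes called in day 2 against day 0 was 25, against 65 without it. Unknown depth limits what can be said of HAI3 and AHG1.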
